A study of Homo sapiens with 18 samples.

Results

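The narrow regions open in every library were stretches of chromatin under 3000 bp wide in which each of 18 ATAC-seq libraries of PC9 cells had a called peak. Peaks on chromosomes 1 to 22 and X that shared at least 1 bp were merged into 79483 regions, and 13055 of these (16.4%) met both conditions. They made up 92.8% of the 14070 regions that all 18 libraries held, the remaining 1015 being 3000 bp wide or wider. The members were chosen by measured values, the presence of a peak in every list and the width of the merged region, so presence and width at the limit are given as description and were not tested. The scores of the peaks took no part in the choice beyond passing the peak caller's threshold in every library, and the differences given here are shifts in score that left the call in place.

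PC9 is an established human lung adenocarcinoma line that carries mutant EGFR, a receptor tyrosine kinase on which its growth depends. Erlotinib inhibits that kinase. The libraries formed 6 groups of 3. DTP (drug-tolerant persister) libraries came from the PC9 cells still alive after 8 days in 1 µM erlotinib, with the drug renewed during that time. PC9 libraries came from unsorted cells given the vehicle DMSO, for a time that the labels do not give. The difference between DTP and PC9 is called the 8 day effect here, though time in culture may differ along with the drug. The sorted cells had 12 h of either 1 µM erlotinib or DMSO and were then separated by flow cytometry with Aldefluor, a dye that aldehyde dehydrogenase (ALDH) turns into a fluorescent product kept in the cell. This gave ALDH-high cells after erlotinib, ALDH-high cells after DMSO, ALDH-low cells after erlotinib and ALDH-low cells after DMSO. Every group was the same line, frozen and thawed before the transposase was added. The labels mark the libraries of a group a, b and c without saying that they were separate cultures. The spread between libraries, on which all p-values rest, may therefore be technical.

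In ATAC-seq a transposase cuts and tags DNA where nucleosomes and other proteins leave it reachable. Sites reachable in every state of a cell line commonly include promoters of widely used genes and sites bound by the insulator protein CTCF, whereas distal enhancers vary more with signalling. EGFR drives the MAP kinase cascade and its transcription factors, which act largely at enhancers. A site that stays open can still give a taller or lower peak, and in a bulk library a change in the number of cells with an open site cannot be told apart from a change in how open it is in each cell.

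The members were 656 to 2999 bp wide, with a median of 1683 bp and quartiles of 1392 and 2085 bp. The narrowest was chr16:29480879-29481534 at 656 bp (hg19 positions, counted from 1, throughout). Just inside the limit lay chr14:61787313-61790311 at 2999 bp and chr2:39662834-39665831 and chrX:134476624-134479621 at 2998 bp. Just outside lay chr5:78531018-78534017 and chr20:57225038-57228037 at 3000 bp and chr4:40057101-40060103 at 3003 bp. In 12375 members each library had a single peak, and the other 680 had 2 peaks in at least 1 library. By contrast, the 16853 regions under 3000 bp that only 1 library held had a median width of 614.5 bp. A further 3072 narrow regions missed membership by 1 library. The missing library was from ALDH-low cells after DMSO for 1529 of them (49.8%), from ALDH-high cells after DMSO for 580 (18.9%), from ALDH-low cells after erlotinib for 474 (15.4%), from DTP for 218 (7.10%), from ALDH-high cells after erlotinib for 162 (5.27%) and from PC9 for 109 (3.55%). The groups missing most often were those with the shortest lists.

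Most members stood in the upper part of their lists, but membership did not place a region at the top. The median list percentile of the members, averaged over the libraries of a group, was 81.5 in DTP and 80.7 in PC9. It was 78.8 and 71.4 in ALDH-low cells after erlotinib and after DMSO, and 80.1 and 75.8 in ALDH-high cells. Ranked among all peaks of the same list, 752 members stood above the 90th percentile in each of the 18 libraries. At the other end, 1225 members fell under the 10th percentile in at least 1 library, and 125 under the 1st. In 194 members the lowest of the 18 list percentiles was under 10 and the highest above 90. Members held 30.0 ± 1.09% of the peaks of DTP lists and 32.8 ± 0.986% of those of PC9 lists (mean ± SD, n = 3 libraries per group). The share was 36.3 ± 4.00% for ALDH-low cells after erlotinib and 49.9 ± 0.202% for ALDH-low cells after DMSO, and 34.4 ± 3.44% for ALDH-high cells after erlotinib and 42.2 ± 1.81% for ALDH-high cells after DMSO. Each of these 3 pairs of groups did not overlap, with p = 0.1 (exact permutation test of 3 against 3, two-sided, the smallest value it allows). Adjusted over 30 tests of library values, that p was 0.136 (exact permutation test). The test adds nothing to list length, since every list must hold a peak in each member. Peaks in members numbered 13136 to 13268 per library, so their share falls as the list grows. List lengths were 44106 ± 1658 peaks in DTP and 40443 ± 1253 in PC9. They were 36570 ± 4045 and 26343 ± 108 in ALDH-low cells after erlotinib and after DMSO. In ALDH-high cells they were 38542 ± 3660 after erlotinib and 31210 ± 1395 after DMSO. The lists give no read depth.

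To compare groups without the length of the lists, the highest peak score of each region was ranked among the same 14070 regions in every library and written as a percentile from 0 to 100. Differences are in percentile points of this scale. They are relative, since some regions must stand higher when others stand lower. Each region was tested with limma over all 18 libraries with 6 group means, with Benjamini-Hochberg adjustment over the 14070 regions, and a difference was called at an adjusted p below 0.05. The part of list length and of unknown read depth in these differences was not tested.

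Across the 18 libraries the percentile of a member ranged over a median of 54.7 points, with quartiles of 42.2 and 65.8 points. Only 271 members stayed within 10 points, while 740 ranged over more than 80. Region L (chr2:176031619-176034034, 2416 bp) was the member with the highest lowest value and stood at or above 99.9 in every library, within 0.135 points, a range that the ceiling of the scale limits. The next by that measure were chr3:186903518-186905730, chr3:189653670-189656464, chr7:55199857-55202468 and chr7:21465833-21468779. Away from the top of the scale, region K (chr14:65568202-65570597, 2396 bp) was among the steadiest, ranging over 12.8 points. Its percentiles were 91.5, 93.3 and 86.2 in DTP and 91.7, 88.5 and 86.3 in PC9, 86.2, 83.5 and 88.9 in ALDH-low cells after erlotinib and 87.2, 93.2 and 88.3 after DMSO, and 92.5, 81.2 and 83.5 in ALDH-high cells after erlotinib and 87.9, 80.5 and 88.6 after DMSO. All groups overlapped. A member can also be steadily weak: chr3:107139738-107140581, 844 bp wide, stayed within 11.5 points at the foot of the scale. The narrowest member of all was not steady, ranging over 89.6 points, with 83.5, 74.5 and 75.9 in DTP and 23.1, 12.3 and 54.6 in PC9.

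The order of the members by score was more alike within a group than between groups, except in ALDH-low cells after DMSO. The mean Spearman correlation between libraries of 1 group over the members was 0.847 in DTP, 0.838 in PC9, 0.816 in ALDH-high cells after erlotinib and 0.835 in ALDH-low cells after erlotinib. It was lower in the DMSO fractions, at 0.755 in the ALDH-high and 0.721 in the ALDH-low cells, the groups with the shortest lists. Between groups it was 0.643 for DTP with PC9, 0.604 for erlotinib with DMSO in ALDH-low cells and 0.659 in ALDH-high cells. Between the ALDH fractions it was 0.729 under DMSO, above the value within the ALDH-low DMSO group, and 0.787 under erlotinib. PC9 was nearest to ALDH-high cells after DMSO (0.726) and farthest from ALDH-low cells after erlotinib (0.534). These correlations are across regions of whole libraries and carry no test. The median SD of a member within a group was 8.37 points in DTP, 8.58 in PC9, 9.27 in the ALDH-high and 8.69 in the ALDH-low cells after erlotinib, and 10.9 in the ALDH-high and 11.7 in the ALDH-low cells after DMSO.

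**Figure D1:**
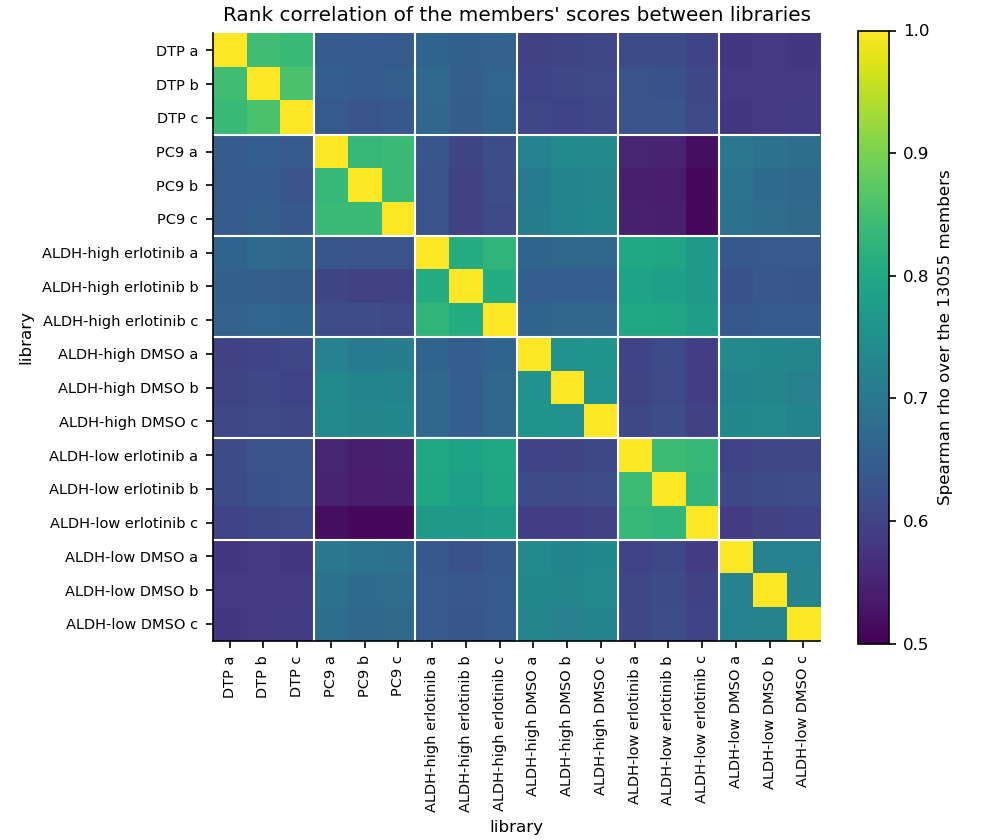
Spearman correlation of the score percentiles of the 13055 members between each pair of the 18 libraries, with libraries on both axes in blocks of 3 per group and colour running from 0.5 (dark) to 1.0 (yellow). The brightest blocks are those of DTP, PC9 and both erlotinib groups on the diagonal (means 0.816 to 0.847), the ALDH-high and ALDH-low blocks after erlotinib are close to each other (mean 0.787), and the darkest block is PC9 with ALDH-low cells after erlotinib (mean 0.534).

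After 8 days in erlotinib, 812 members rose in rank and 1163 fell in DTP relative to PC9. Among the members 6.22% rose and 8.91% fell, beside 6.15% and 8.66% of all 14070 regions tested. That background consists mostly of members, so its closeness follows from its make-up. Of the 1015 wider regions 5.22% rose and 5.42% fell. Shares of members and of wider regions were not tested against each other, here or at 12 h. The median difference was 0.788 points over the members and 0.843 over all regions. The called members moved far: those that rose had a median percentile of 72.7 in DTP and 29.3 in PC9, and those that fell 27.3 in DTP and 74.7 in PC9. In 37 of the members that fell, at least 1 DTP library stood under the 10th percentile of its whole list, and in 15 of those that rose at least 1 PC9 library did. Leaving out any 1 of the 6 DTP and PC9 libraries lowered the number that rose by more than 1.5 times: to 470, 491 and 460 without DTP a, b and c, and to 519, 494 and 508 without PC9 a, b and c. The number that fell was 765 without DTP c. Among all peaks of each list the split was 267 higher and 554 lower, with list lengths that differ between the groups. That scale kept only 758 of the 1975 calls in the same direction and reversed none.

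The 10 members that rose most at 8 days lay on 7 chromosomes, with differences of 70.8 to 89.9 points and adjusted p-values of 2.66e-06 to 0.000116 (limma). Region B (chr7:83313792-83315028, 1237 bp) led them. Its percentiles were 89.3, 97.6 and 97.1 in DTP and 4.74, 4.86 and 4.64 in PC9, a difference of 89.9 ± 10.7 points (SE, n = 3 per group; limma adjusted p = 9.89e-06). Every PC9 library put this region near the bottom of the 14070 and the DTP libraries put it at 89.3 or above. At 12 h it had 91.8, 83.6 and 85.8 in ALDH-low cells after erlotinib and 19.5, 39.6 and 33.1 after DMSO, and 95.2, 81.7 and 58.6 in ALDH-high cells after erlotinib and 11.3, 27.7 and 3.87 after DMSO. The groups did not overlap in either fraction, and the difference was 60.2 ± 7.54 points over both fractions (limma adjusted p = 5.68e-06). Also among them was chr20:52482166-52483967, with 82.8, 90.9 and 86.4 in DTP and 1.89, 11.0 and 7.41 in PC9 (79.9 ± 9.49 points). Region A (chr7:36148200-36149771, 1572 bp) had 82.8, 79.1 and 77.2 in DTP and 2.65, 2.10 and 2.45 in PC9, a difference of 77.3 ± 9.14 points (limma adjusted p = 9.89e-06). Both regions also rose at 12 h. The 10 were chosen among called members whose DTP and PC9 libraries did not overlap, so that separation follows from the rule. Of the 10, 7 were called higher at 12 h as well and none lower.

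Regions C and D were among the 10 without such a change at 12 h. Region C (chr10:60615870-60617264, 1395 bp) had 85.2, 73.8 and 78.3 in DTP and 2.91, 2.51 and 10.5 in PC9, a difference of 73.8 ± 8.80 points (limma adjusted p = 9.89e-06). Region D (chr18:12286623-12288810, 2188 bp) had 74.6, 80.6 and 77.8 in DTP and 7.50, 5.39 and 7.70 in PC9, a difference of 70.8 ± 7.66 points (limma adjusted p = 3.8e-06). In both, the DTP libraries alone were high, and none of the other 15 libraries stood above 35.9. At 12 h the difference between erlotinib and DMSO over both fractions was 5.12 ± 6.22 points for C (adjusted p = 0.628) and 8.06 ± 5.42 points for D (adjusted p = 0.331). The difference between the 8 day and the 12 h effect was itself called, at 68.7 ± 10.8 points for C (limma adjusted p = 0.00067) and 62.7 ± 9.39 points for D (limma adjusted p = 0.000391).

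The 10 members that fell most at 8 days lay on 5 chromosomes, with differences of −87.4 to −71.8 points and adjusted p-values of 7.74e-07 to 0.00143 (limma). The strongest was chr4:87898017-87899494, with 4.97, 0.167 and 6.10 in DTP and 92.4, 93.2 and 87.9 in PC9 (−87.4 ± 11.9 points). This region stood near the top of the shared set in PC9 and near its foot in DTP, with a peak in every library. Region E (chr3:58191647-58193242, 1596 bp) had 11.9, 25 and 12.4 in DTP and 89.1, 96.8 and 96.0 in PC9, a difference of −77.5 ± 9.20 points (limma adjusted p = 9.89e-06). Region F (chr3:171653233-171655026, 1794 bp) had 5.19, 12.1 and 3.00 in DTP and 85.5, 81.0 and 69.4 in PC9, a difference of −71.9 ± 6.71 points (limma adjusted p = 7.74e-07). The rule that named these 10 members required that DTP and PC9 libraries did not overlap. At 12 h, 8 of the 10 were also called lower. Region F was the 1 called higher.

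Members differed after 12 h of erlotinib in both ALDH fractions. In ALDH-low cells 732 members rose and 907 fell (5.61% and 6.95% of the members, beside 5.37% and 6.79% of all regions tested). In ALDH-high cells 483 rose and 489 fell (3.7% and 3.75%, beside 3.55% and 3.65%). Of the 1015 wider regions 2.27% rose and 4.73% fell in ALDH-low cells, and 1.58% rose and 2.46% fell in ALDH-high cells. The fractions share no libraries in these comparisons. Of the members that rose, 232 were called in both, which is 31.7% of those in ALDH-low and 48.0% of those in ALDH-high cells. Of the members that fell, 314 were called in both, 34.6% and 64.2%. Only 2 members were called in opposite directions. Whether called there or not, 91.4% of the members that rose in ALDH-low cells had a positive difference in ALDH-high cells, and 95.9% of those that rose in ALDH-high cells had one in ALDH-low cells. Of those that fell, 92.3% and 96.9% had a negative difference in the other fraction. These overlaps were counted over members alone, so they do not show whether the wider regions agree as often. Counts in a single fraction depend on single libraries: in ALDH-low cells 436 rose without the erlotinib library a, and in ALDH-high cells 315, 305 and 298 rose without the erlotinib libraries a, b and c, and 320 fell without b. With each comparison fitted on its own libraries the counts were 383 and 512 in ALDH-low and 255 and 263 in ALDH-high cells.

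Over both fractions, 1287 members rose and 1373 fell after 12 h (9.86% and 10.5%, beside 9.54% and 10.3% of all regions tested). Of the 1015 wider regions 5.42% rose and 7.78% fell. The median difference was 0.371 points over the members and 0.194 over all regions. Those that rose had a median percentile of 69.3 after erlotinib and 32.1 after DMSO, and those that fell 24.6 after erlotinib and 64.3 after DMSO. In 118 of the members that fell, at least 1 erlotinib library stood under the 10th percentile of its whole list, and in 148 of those that rose at least 1 DMSO library did. The split by direction depends on the ranked set: among all peaks of each list, whose lengths differ most between erlotinib and DMSO, 2849 members stood higher and 754 lower, 79.1% higher, and the median difference over the members was 5.02 points. That scale kept 2035 of the 2660 calls and reversed none.

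**Figure D2:**
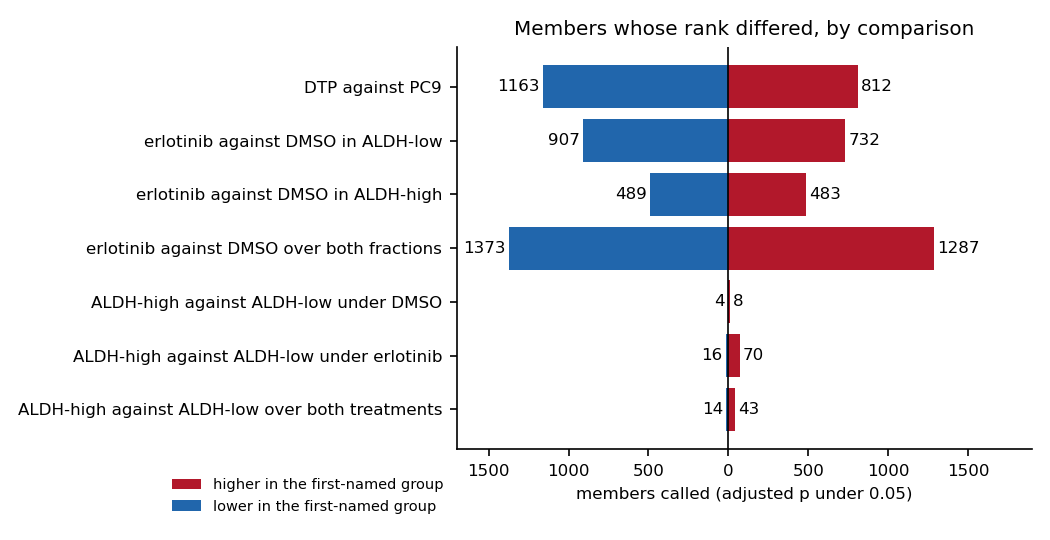
Number of members called in each comparison at a limma adjusted p under 0.05, to the right of 0 where the first-named group was higher (red) and to the left where it was lower (blue). The bars of 8 days and 12 h of erlotinib run from 483 to 1373 members, those between ALDH fractions from 4 to 70.

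Region A also led the members that rose at 12 h. It had 98.8, 97.8 and 93.3 in ALDH-low cells after erlotinib and 18, 4.24 and 23.3 after DMSO, and 96.9, 98.3 and 95.1 in ALDH-high cells after erlotinib and 15.2, 11.7 and 13.2 after DMSO. The difference over both fractions was 82.4 ± 6.47 points (SE, 6 libraries each, limma adjusted p = 2.49e-08). The leading 10 were chosen among called members whose erlotinib and DMSO libraries did not overlap in each fraction, so that separation follows from the rule. The other members of the leading 10 differed by 69.2 points or more, and 7 of the 10 were called higher at 8 days too. Region H (chr1:202025318-202028297, 2980 bp) was among the exceptions. It had 96.6, 94.8 and 96.1 in ALDH-low cells after erlotinib and 28.6, 2.83 and 4.82 after DMSO, and 92.4, 72.3 and 92.5 in ALDH-high cells after erlotinib and 24.2, 18.3 and 8.49 after DMSO (76.2 ± 6.88 points; limma adjusted p = 9.87e-08). DTP libraries stood at 7.53, 17.8 and 20.5 and PC9 libraries at 12.6, 17.7 and 6.88, overlapping each other and the sorted DMSO libraries. The 8 day effect was 2.87 ± 9.72 points (limma adjusted p = 0.887), and it differed from the 12 h effect by −73.4 ± 11.9 points (limma adjusted p = 0.000812).

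Region G (chr8:98929859-98931559, 1701 bp) fell furthest at 12 h. It had 1.79, 5.15 and 0.423 in ALDH-low cells after erlotinib and 93.0, 94.2 and 89.9 after DMSO, and 26.6, 14.4 and 9.42 in ALDH-high cells after erlotinib and 98.5, 98.6 and 94.6 after DMSO. The fall was −85.2 ± 5.54 points over both fractions (limma adjusted p = 2.09e-09) and was called in each. In DTP the same region stood at 80.1, 98.1 and 95.9, and in PC9 at 99.2, 93.6 and 99.1, with overlapping groups and a difference of −5.90 ± 7.83 points (limma adjusted p = 0.671). The difference between the effects was 79.3 ± 9.59 points (limma adjusted p = 2.97e-05). Another member of this kind was chr5:145325196-145326780, with 0.636, 30.2 and 9.08 in ALDH-low cells after erlotinib and 87.6, 89.996 and 83.8 after DMSO, and 9.17, 2.83 and 13.1 in ALDH-high cells after erlotinib and 91.2, 90.5 and 75.9 after DMSO. DTP and PC9 were high there, at 93.5, 95.4 and 94.6 in DTP and 88.7, 89.98 and 91.1 in PC9. The 10 members that fell most at 12 h had differences of −85.2 to −70.7 points, and 4 of them also fell at 8 days. One was region E, which had 1.70, 3.49 and 7.17 in ALDH-low cells after erlotinib and 89.0, 87.5 and 81.2 after DMSO, and 12.1, 23.9 and 15.1 in ALDH-high cells after erlotinib and 88.9, 88.1 and 87.8 after DMSO. Its difference at 12 h was −76.5 ± 6.5 points (limma adjusted p = 4.99e-08). The effect at 8 days minus that at 12 h was −1.01 ± 11.3 points. Another was chr5:151124201-151125864, with 19.6, 43.8 and 33.3 in DTP and 99.5, 98.9 and 99.6 in PC9, and falls of −67.1 ± 8.88 points at 8 days and −71.9 ± 6.28 points at 12 h.

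The 8 day and 12 h comparisons share no libraries, though they also differ in sorting, so duration and sorting cannot be told apart. How long the PC9 cells had DMSO is not given, so time in culture may differ as well. Called in the same direction in both were 224 members that rose (27.6% of the 812 at 8 days and 17.4% of the 1287 at 12 h) and 453 that fell (39.0% of the 1163 and 33.0% of the 1373). A further 15 members rose at 8 days and fell at 12 h, and 44 fell at 8 days and rose at 12 h, and for all 59 the difference between the effects was called. Over the members, that difference was called positive for 303 and negative for 458 (2.32% and 3.51%, beside 2.33% and 3.38% of all regions tested). Without 1 of the 6 unsorted libraries the positive calls numbered 169, 190 and 181 (DTP a, b and c left out) and 193, 186 and 174 (PC9 a, b and c), and the negative calls 301, 293 and 298 without PC9 a, b and c. Neither effect was called for 9156 members. The overlaps of both effects were counted over members alone, so they do not show whether the wider regions overlap as often.

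The members with opposite calls include region F. At 12 h it had 96.9, 90.7 and 94.0 in ALDH-low cells after erlotinib and 71.9, 74.9 and 85.9 after DMSO, and 91.0, 93.9 and 96.2 in ALDH-high cells after erlotinib and 89.6, 74.7 and 84.8 after DMSO. It stood higher after erlotinib by 13.5 ± 4.75 points (limma adjusted p = 0.0469), and the erlotinib libraries lay above the DMSO libraries within each fraction. The effect at 8 days minus that at 12 h was −85.4 ± 8.22 points (limma adjusted p = 5.21e-06). The named member with the most negative difference between the effects was chr10:114846541-114847935. It had 11.9, 12.6 and 5.6 in DTP and 70.7, 72.7 and 37.3 in PC9, a fall of −50.2 ± 12.0 points (limma adjusted p = 0.00733). At 12 h it had 84.6, 86.1 and 87.4 in ALDH-low cells after erlotinib and 61.3, 49.0 and 24.4 after DMSO, and 71.5, 71.5 and 94.0 in ALDH-high cells after erlotinib and 38.0, 49.2 and 19.1 after DMSO, a gain of 42.3 ± 8.49 points (limma adjusted p = 0.000958). Every erlotinib library thus lay above its DMSO libraries at 12 h and every DTP library below PC9 at 8 days, with −92.5 ± 14.7 points between the effects (limma adjusted p = 0.000728).

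**Figure D3:**
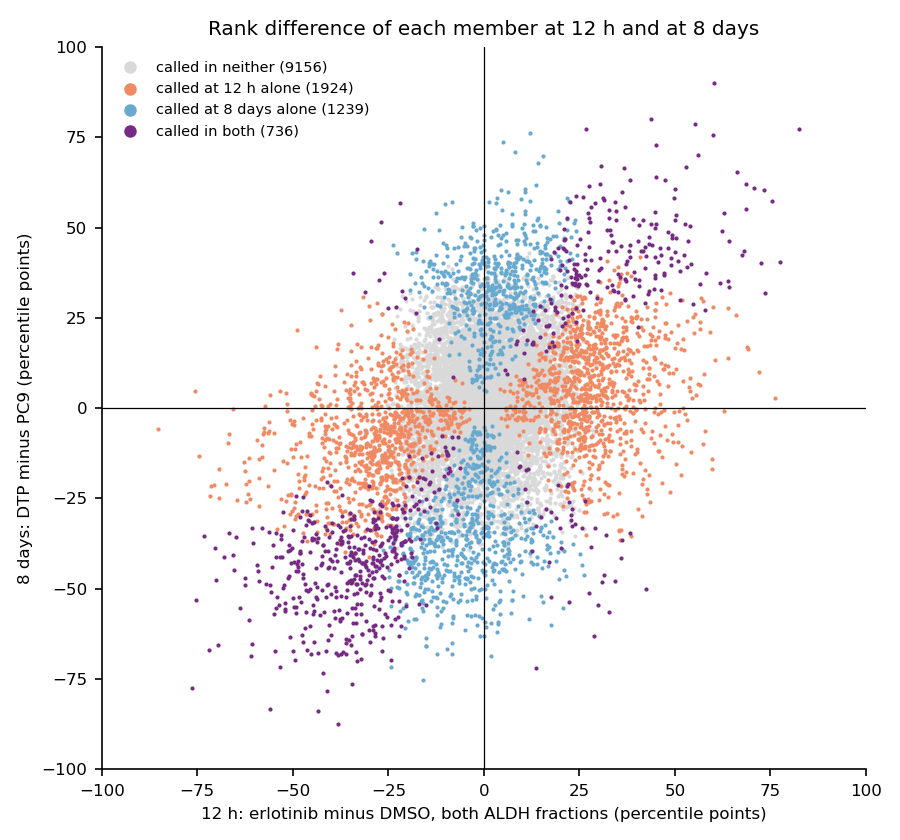
Difference in score percentile of each of the 13055 members after 12 h (x axis, erlotinib minus DMSO over both ALDH fractions, percentile points) and after 8 days (y axis, DTP minus PC9, percentile points), coloured by call: 9156 in neither, 1924 at 12 h alone, 1239 at 8 days alone and 736 in both. Members called in both (purple) lie mainly in the upper right and lower left, with 59 in the other corners.

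Few members differed between the ALDH fractions. Under DMSO, 8 members stood higher and 4 lower in ALDH-high than in ALDH-low cells. These were 0.0613% and 0.0306% of the members, beside 0.0711% and 0.0284% of all regions tested. Under erlotinib, 70 stood higher and 16 lower (0.536% and 0.123%, beside 0.512% and 0.121%). Over both treatments the numbers were 43 and 14 (0.329% and 0.107%, beside 0.313% and 0.107%). These calls rest on the spread estimated from all 18 libraries. Fitted on the libraries of the comparison alone, none were called. At an unadjusted p under 0.05, that fit had 393 members higher and 376 lower under DMSO, 846 and 676 under erlotinib and 742 and 640 over both treatments. Under erlotinib the higher calls numbered 38 and 28 without the ALDH-high erlotinib libraries a and c. The lower calls numbered 6 and 3 without the same libraries and 10 and 9 without the ALDH-low erlotinib libraries a and b. Differences of 50 points or more between group means occurred in 3 members under DMSO and 16 under erlotinib, against 332 between DTP and PC9.

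Region I (chr2:223620598-223623093, 2496 bp) had the largest called difference of ALDH-high over ALDH-low cells under erlotinib. It had 86.1, 84.7 and 76.1 in ALDH-high cells after erlotinib and 17.2, 17.5 and 16.2 in ALDH-low cells after erlotinib. After DMSO both fractions were high, at 83.2, 89.8 and 90.5 in ALDH-high and 65.7, 88.8 and 91.7 in ALDH-low cells, as were DTP at 96.0, 95.2 and 91.97 and PC9 at 92.8, 89.3 and 88.0. Only the 3 ALDH-low erlotinib libraries were low: the difference between erlotinib and DMSO was −5.53 ± 6.26 points in ALDH-high cells (limma adjusted p = 0.692) and −65.1 ± 6.26 points in ALDH-low cells (limma adjusted p = 6.83e-07). The difference of the 2 effects was 59.6 ± 8.86 points (limma adjusted p = 0.0053), and its adjusted p was 0.305 with the sorted libraries alone. The same pattern appeared at chr3:133726877-133729218, with 86.3, 84.1 and 68.8 in ALDH-high and 16.0, 24.7 and 7.02 in ALDH-low cells after erlotinib. There the difference of effects was 62.1 ± 11.1 points (limma adjusted p = 0.0351), with adjusted p-values of 0.0522 to 0.0922 when DTP a or b, PC9 a or b, ALDH-low DMSO a or c, ALDH-high DMSO b or c, or ALDH-high erlotinib a or b was left out.

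In all, the effect of erlotinib differed between the fractions in 7 members, 6 with a more positive and 1 with a more negative effect in ALDH-high cells (0.0426% and 0.00711% of all regions tested). No such call remained with the sorted libraries alone, where 463 and 431 members had an unadjusted p under 0.05. In 5 of the 6, region I among them, erlotinib lowered the rank in ALDH-low cells (differences of −80.4 to −22.1 points) and the difference between DTP and PC9 was not called. One of these was chr5:9046074-9047972. It had 89.1, 55.2 and 87.2 in ALDH-high cells after erlotinib and 99.6, 99.8 and 99.8 after DMSO, and 22.8, 23.9 and 10.2 in ALDH-low cells after erlotinib and 99.3, 99.4 and 99.2 after DMSO. Erlotinib libraries lay below DMSO libraries in both fractions, and further below in ALDH-low cells (57.8 ± 8.58 points between the effects; limma adjusted p = 0.0053, and 0.305 with the sorted libraries alone). The member with the more negative effect was region J (chr5:91887710-91889096, 1387 bp), in which the fractions moved in opposite directions. It had 18.6, 32.1 and 18.9 in ALDH-high cells after erlotinib and 67.8, 57.4 and 63.2 after DMSO, a fall of −39.6 ± 9.41 points (limma adjusted p = 0.0109). In ALDH-low cells it had 60.3, 66.0 and 50.5 after erlotinib and 12.1, 27.3 and 13.8 after DMSO, a rise of 41.2 ± 9.41 points (limma adjusted p = 0.00537). The groups did not overlap within either fraction. The difference of effects was −80.8 ± 13.3 points (limma adjusted p = 0.0163), and its adjusted p was 0.0527 without ALDH-low DMSO a, 0.0501 without ALDH-high DMSO c and 0.0703 without ALDH-high erlotinib c.

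A few members stood apart by ALDH fraction whatever the treatment. At chr1:95327574-95330407 the percentiles were 79.4, 94.4 and 78.9 in ALDH-high and 35.3, 66.5 and 36.1 in ALDH-low cells after erlotinib, and 87.9, 95.7 and 86.7 in ALDH-high and 55.1, 60.7 and 53.5 in ALDH-low cells after DMSO. ALDH-high libraries were above ALDH-low libraries under each treatment, by 36.0 ± 5.25 points over both (limma adjusted p = 0.00209; 0.072 with the sorted libraries alone). The reverse held at chr19:14627654-14630154, with 30.8, 32.7 and 5.57 in ALDH-high and 79.2, 75.4 and 67.9 in ALDH-low cells after erlotinib, and 16.2, 10.0 and 4.28 in ALDH-high and 51.2, 37.0 and 34.3 in ALDH-low cells after DMSO. The difference over both treatments was −40.9 ± 6.91 points (limma adjusted p = 0.0071; 0.072 with the sorted libraries alone). Under DMSO the largest difference was at chr10:121445664-121447261, with 74.7, 66.2 and 67.2 in ALDH-high and 20.6, 12.1 and 14.1 in ALDH-low cells (53.7 ± 10.3 points; limma adjusted p = 0.0389). That call was kept in 13 of 31 alternatives. The limma adjusted p was 0.835 with the libraries of the comparison alone and 0.0544 with the replicate letter as a block. It was 0.05 to 0.123 without ALDH-high DMSO a, b or c, ALDH-low DMSO a, b or c, ALDH-high erlotinib b, ALDH-low erlotinib a, b or c, DTP a, b or c, or PC9 a. After erlotinib the fractions overlapped there, at 46.8, 22.7 and 36.9 in ALDH-high and 27.6, 31.7 and 38.6 in ALDH-low cells.

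**Figure D4:**
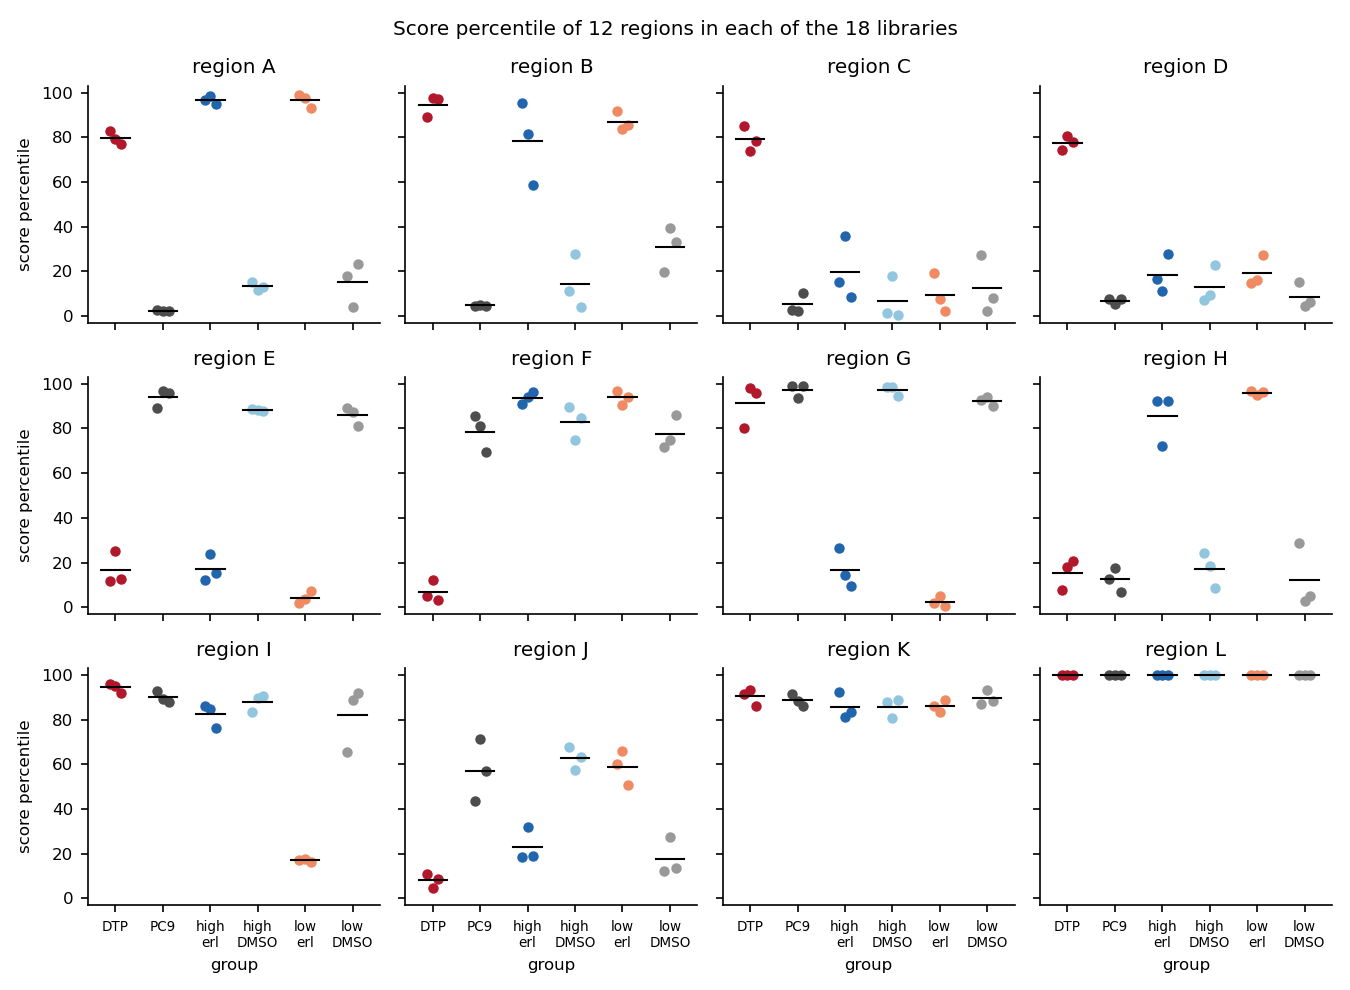
Score percentile (y axis, 0 to 100 among the 14070 regions held by all libraries) of the 12 lettered members in each of the 18 libraries, by group (x axis; low and high are the ALDH fractions, erl is erlotinib), with a bar at the mean of the 3 libraries. Regions A and B are high in all erlotinib groups, C and D in DTP alone, E is low in all erlotinib groups, F in DTP alone, G in the 12 h erlotinib groups and I in ALDH-low cells after erlotinib, H is high in the 12 h erlotinib groups, J moves in opposite directions in the ALDH fractions, K is steady, and L lies at the ceiling of the scale.

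The number of bases that peaks covered in a member was a second measure of the same peaks, so it is not independent of rank. It was compared on the log2 scale after centring each library on its median. The rule leaves out merged regions of 3000 bp or more, so the balance of wider and narrower members is a description. The median covered length per member was 1191 ± 11.8 bp in DTP and 1147 ± 7.37 bp in PC9, 1287 ± 37.6 and 1148 ± 14.8 bp in ALDH-low cells after erlotinib and after DMSO, and 1292 ± 35.7 and 1193 ± 13.6 bp in ALDH-high cells after erlotinib and after DMSO. Beyond that common shift, far fewer members were called for width than for rank. At an unadjusted limma p under 0.05 the gap was smaller. In DTP 854 members were wider and 975 narrower, beside 1772 higher and 1988 lower in rank. At 12 h over both fractions 865 were wider and 1192 narrower, beside 2099 higher and 2055 lower. Few calls therefore do not show that width was stable. In DTP the peaks of 73 members were wider and those of 106 narrower than in PC9 (0.559% and 0.812% of the members). Over all regions tested the shares were 0.661% and 0.874%, which include 20 and 17 of the 1015 wider regions. In the members that were wider, the median covered length was 1739 bp in DTP and 928 bp in PC9, and the median ratio per member after centring was 1.62. In those that were narrower it was 917.5 bp in DTP and 1448 bp in PC9, with a median ratio of 0.607. Of the 106 narrower members 53 also fell in rank and none rose, and of the 73 wider members 13 rose and 1 fell. After 12 h of erlotinib 107 were wider and 133 narrower over both fractions (0.82% and 1.02% of the members), with 44 of the wider rising in rank and 91 of the narrower falling. Over all regions tested the shares were 1.01% and 0.967%, which include 35 and 3 of the wider regions. Width differed in either direction for 35 members in ALDH-low cells (0.268% of the members, and 0.348% of all regions tested) and for 9 in ALDH-high cells (0.0689% and 0.107%). Between ALDH fractions it differed for 1 member under DMSO, 5 under erlotinib and none over both treatments (limma; 990 at an unadjusted p under 0.05). Over all regions tested the shares were 0.0426% under DMSO, 0.0498% under erlotinib and 0.00711% over both, which include 5, 2 and 1 of the 1015 wider regions. Without 1 of the unsorted libraries, the width calls in either direction in DTP numbered 112, 115 and 111 (DTP a, b and c) and 112, 89 and 94 (PC9 a, b and c). Those at 12 h numbered 140 and 135 without ALDH-low erlotinib a and b, 111 and 122 without ALDH-high erlotinib a and c, and 123 without ALDH-high DMSO a.

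The share of members that fell at 8 days varied with their width. When members were split at the quartiles of width, among those of 656 to 1392 bp 3.76% of members rose and 12.5% fell in DTP, with a median difference of −5.01 points. From 1393 to 1683 bp, 6.39% rose and 9.73% fell, and from 1684 to 2085 bp 7.94% rose and 7.26% fell. Among those of 2086 to 2999 bp, 6.81% rose and 6.11% fell, with a median of 2.27 points. At 12 h the narrowest of these classes also had the largest share that fell, 14.6% beside 9.37% that rose, and the widest had 8.41% beside 6.97%. Width is part of the rule and wider members also stood higher on average (Spearman correlation of width and mean percentile across members 0.334), so these shares are a description.

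Rank differences of the members at 8 days were unevenly spread over the genome. The shared regions of 3000 bp or more were not counted by chromosome or bin, so whether they differ likewise is not shown. On chromosome 19, 75 of 506 members rose in DTP (14.8%) and 9 fell (1.78%), and on chromosome 20, 37 of 279 rose (13.3%) and 10 fell (3.58%). On chromosome 6 the order was turned, with 26 of 859 rising (3.03%) and 136 falling (15.8%). At 12 h the corresponding shares were 12.8% and 3.56% on chromosome 19, 10.4% and 9.32% on chromosome 20 and 8.85% and 12.1% on chromosome 6. Medians of the difference in 10 Mb bins with at least 20 members, of which there were 253, varied with an SD of 7.69 points at 8 days and 3.20 points at 12 h. At 8 days the bin medians ran from −18.2 to 22.8 points, and 48 bins were at least 10 points from 0. At 12 h they ran from −12.2 to 9.12 points, and 1 bin was. The highest bin at 8 days was 30 to 40 Mb on chromosome 19. The median percentile of its 64 members was 66.9, 66.8 and 70.4 in DTP and 40.7, 44.6 and 40.1 in PC9. There 22 members rose and 1 fell. Among the lowest was 130 to 140 Mb on chromosome 6, where the 73 members had medians of 53.1, 48.6 and 48.9 in DTP and 73.5, 68.7 and 69.1 in PC9. None of these rose and 27 fell. At 12 h the medians of these bins were 4.97 points on chromosome 19 and −1.34 points on chromosome 6. Both bins were picked by their 8 day values. The distance between DTP and PC9 libraries there, and its contrast with 12 h, follow in part from that choice.

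**Figure D5:**
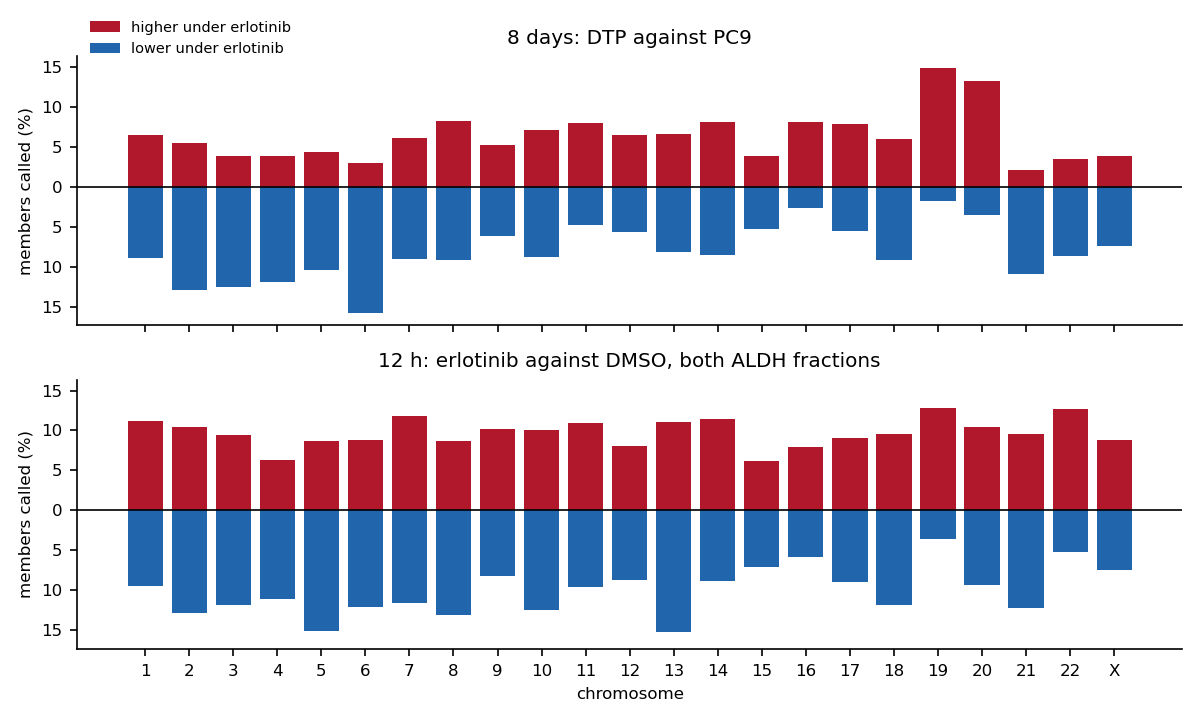
Percent of the members on each chromosome (x axis) that were called higher (red, above 0) or lower (blue, below 0) under erlotinib, after 8 days (upper panel, DTP against PC9) and after 12 h (lower panel, erlotinib against DMSO over both ALDH fractions). At 8 days chromosomes 19 and 20 have the tallest red bars (14.8% and 13.3%) and chromosome 6 the deepest blue bar (15.8%).

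At 8 days, most neighbouring pairs with both members called had the same direction, also at long distances. The median gap between neighbouring members was 77722 bp. Where both of a neighbouring pair were called at 8 days, they had the same direction in 58 of 80 pairs under 20 kb apart (72.5%), 116 of 149 at 20 to 100 kb (77.9%), 91 of 116 at 100 to 500 kb (78.4%) and 27 of 36 farther apart (75%). Called members on different chromosomes had the same direction in 51.1% of pairs. At 12 h the shares were 54.5%, 53.8%, 51.9% and 53.7%, beside 49.98% on different chromosomes. Neighbouring regions are not independent, and no test was made of these shares. Expressed relative to the median of its 10 Mb bin in each library, a scale chosen after seeing the data, 559 members rose and 829 fell at 8 days. That scale kept only 969 of the 1975 calls at 8 days in the same direction and reversed 5. At 12 h over both fractions it kept 2018 of 2660 and reversed none.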

How the data were processed

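Accessible chromatin was measured by ATAC-seq in 18 libraries of 1 cell line, in 6 groups of 3 taken from the labels. Each library came with 1 peak list of the authors in which each peak has a deposited score, whose scale is not stated. Per the submitters' processing notes, BWA, MACS 1.4.2 and the hg19 build were used. How reads were trimmed, deduplicated and shifted, and which calling parameters were set, was not given in the sources used here, and read depth is unknown. The lowest score was 70 in the lists. Only peaks on chromosomes 1 to 22 and X were used. The members and lists were chosen with earlier results of these data known.

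Peaks sharing at least 1 bp were merged in Python 3.11.15 (pandas 2.3.3) and checked with bedtools 2.31.1. Percentiles are mid-ranks of the region's highest score, tested with limma 3.58.1 in R 4.3.3 (lmFit, contrasts, eBayes with trend). Bases covered were tested in the same way on the log2 scale. For single values per library, exact permutation tests (two-sided) were used. The fits were tested on simulated data. Regions were named by rule: per direction, the 10 members with the largest mean difference at 8 days and at 12 h over both fractions among those called whose groups did not overlap (in each fraction for 12 h), the 3 largest in every other comparison, the 5 largest shared by 8 days and 12 h, the 5 with the smallest range under a mean of 90, the 5 with the highest lowest value, and the 3 narrowest and 3 nearest to the width limit on each side. The bins, the chromosomes and the remaining members in which the fractions differed were named after their values were seen. Alternatives were the cover that counts as holding a region, a higher score threshold, a lower width limit, other ranked sets and scales, the libraries in the fit, a replicate block and leaving out each library. Library weights, ranks within width deciles and centring in 10 Mb bins were added after seeing the data. No sequence or gene annotation of hg19 was used here, so regions carry no gene names, and the gene lists, marker lists and motifs planned were not used here.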

Additional observations from a re-analysis of the deposited data

Results flagged for a closer look

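Members in which erlotinib had different effects in the ALDH fractions were marked because the test of that difference passed the threshold (limma, adjusted over 14070 regions). There were 6 with a more positive and 1 with a more negative effect in ALDH-high cells. The difference of the effects was 59.6 points at chr2:223620598-223623093, 62.1 points at chr3:133726877-133729218, 57.8 points at chr5:9046074-9047972, 32.1 points at chr5:37770889-37772829, 64.8 points at chr6:47632583-47633555 and 21.3 points at chr10:116079407-116081370. At chr5:91887710-91889096 it was −80.8 points. The member on chromosome 6 was the only 1 of the 6 in which the difference between DTP and PC9 was called (−26.7 ± 8.44 points; limma adjusted p = 0.0367). It had 31.5, 18.2 and 30.7 in ALDH-high cells after erlotinib and 5.88, 14.1 and 16.6 after DMSO, and 2.63, 19.1 and 2.53 in ALDH-low cells after erlotinib and 58.0, 69.6 and 47.3 after DMSO. Of the erlotinib effects in the fractions, only the ALDH-low fall was called there (limma adjusted p = 0.000375, and 0.351 in ALDH-high cells). The same held for the members on chromosomes 2, 3 and 10. Its difference of effects was called in 8 of 29 alternatives. The limma adjusted p was 0.0552 with the replicate letter as a block, and 0.0522 to 0.128 without ALDH-high DMSO a, b or c, ALDH-low DMSO a or b, ALDH-high erlotinib a or c, ALDH-low erlotinib a or c, DTP a or b, or any PC9 library. The call at chr5:37770889-37772829 held in 12 of 31 alternatives, with 0.0522 to 0.11 without ALDH-high DMSO a, b or c, ALDH-low DMSO a or b, ALDH-high erlotinib b or c, DTP a or b, or any PC9 library. That at chr10:116079407-116081370 held in 9 of 31, with 0.0552 under the block and 0.0522 to 0.11 without ALDH-high DMSO a, b or c, ALDH-low DMSO b or c, any ALDH-high erlotinib library, ALDH-low erlotinib c, DTP a or b, or any PC9 library. None of the 7 differences of effects was called with the sorted libraries alone. At chr10:116079407-116081370 all 18 percentiles were high, and the ALDH-low erlotinib libraries, at 78.7, 65.7 and 73.2, were lower than every other library.

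The 8 day and the 12 h effect differed in 303 members with a more positive and 458 with a more negative effect at 8 days. The named ones were chr5:145325196-145326780 (80.2 points), chr8:98929859-98931559 (79.3 points) and chr11:56839595-56840980 (78.9 points), and, in the other direction, chr10:114846541-114847935 (−92.5 points), chr14:52591138-52592537 (−92.0 points) and chr22:38684618-38687002 (−89.3 points). The member on chromosome 11 had 75.6, 55.3 and 68.4 in DTP and 15.3, 2.68 and 10.8 in PC9, and stood at 6.11 or lower in each of the 6 sorted erlotinib libraries. The member on chromosome 22 had 4.08, 4.84 and 2.23 in DTP and 44.8, 65.8 and 70.4 in PC9, whereas ALDH-low cells had 87.0, 88.5 and 77.2 after erlotinib and 38.1, 61.9 and 41.8 after DMSO. In these members, duration of the drug cannot be told apart from sorting, and the time that PC9 cells had DMSO is not given.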

How the results depend on the processing

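Of 96 named comparisons of a region, 71 kept their call under every alternative that gave a value and 25 lost it under at least 1; none changed direction. All 25 lie between ALDH fractions or in the difference of the erlotinib effect between them. Counts are given as higher and lower, and the causes of the moves were not tested unless fewer regions or libraries entered. Counting a region only where peaks cover at least 50% of it left 7942 members, with 550 higher and 687 lower for DTP, 432 and 507 for erlotinib in ALDH-low, 268 and 270 in ALDH-high, 777 and 811 over both, 40 and 8 between fractions under erlotinib, 19 and 8 over both treatments, and 0 with a more negative erlotinib effect in ALDH-high cells (299 at an unadjusted p under 0.05). Scores of at least 100 gave 321 higher for erlotinib in ALDH-high, 2 lower between fractions under DMSO, 46 and 6 under erlotinib and 26 and 8 over both treatments. Members under 2000 bp gave 8 lower between fractions over both treatments. Ranks among all peaks of the list gave 267 and 554 for DTP, 2017 and 567 for erlotinib in ALDH-low, 158 lower in ALDH-high, 2849 and 754 over both, 145 and 9 between fractions under DMSO, 1 lower under erlotinib, 140 and 3 over both treatments, 4 more negative effects in ALDH-high cells and 83 more positive effects at 8 days. Ranks among members alone gave 2 lower between fractions under DMSO and 2 more negative effects in ALDH-high cells. Summed scores gave 15 and 7 between fractions under DMSO. Normal scores gave 2 lower between fractions under DMSO, 2 lower under erlotinib, 69 higher over both treatments, and 0 and 0 differences of the erlotinib effect (566 and 511 unadjusted). Log2 scores gave 384 higher for DTP, 4 and 2 between fractions under DMSO, 129 higher under erlotinib, 122 and 49 over both treatments, and 18 and 3 differences of effect. With the libraries of the comparison alone there were 383 and 512 for erlotinib in ALDH-low, 255 and 263 in ALDH-high, 0 and 0 in each comparison of fractions and of effects between them, and width calls of 81 for DTP, 23 for erlotinib in ALDH-high, and 0, 3 and 6 between fractions under DMSO, erlotinib and both. Libraries of the same letter showed no shared deviation on this scale: same-letter deviations from group means correlated at −0.0127 to 0.0168. This cannot tell whether they came from 1 culture or batch. With the letter as a replicate block there were 2 and 0 between fractions under DMSO (655 lower at an unadjusted p under 0.05), 8 lower over both treatments and 3 width calls under erlotinib, and 763 and 1110 for DTP. Of the alternatives added after seeing the data, library weights gave 2 and 0 (428 unadjusted) between fractions under DMSO, 111 and 35 under erlotinib, 15 and 1 over both treatments and 2 more positive effects in ALDH-high cells. Ranks within width deciles gave 4 and 2 under DMSO and 1 more positive effect. Centring in 10 Mb bins gave 4 and 0 (617 unadjusted) under DMSO, 18 and 7 under erlotinib, 4 and 1 over both treatments, 0 (587 unadjusted) more positive effects in ALDH-high cells and 192 more positive effects at 8 days. Leaving out 1 library gave 460 to 911 higher and 765 to 1238 lower for DTP, 436 to 784 and 635 to 958 for erlotinib in ALDH-low, 298 to 561 and 320 to 562 in ALDH-high, and 1107 to 1294 and 1228 to 1383 over both. Between fractions it gave 2 to 20 and 0 to 8 under DMSO, 28 to 73 and 3 to 19 under erlotinib, and 14 to 55 and 2 to 17 over both treatments. Differences of effect numbered 2 to 13 and 0 to 4 between fractions and 169 to 337 and 293 to 469 between 8 days and 12 h. Members numbered 13086 to 13596. Width calls numbered 89 to 198 for DTP, 23 to 49, 9 to 22 and 111 to 244 for erlotinib in ALDH-low, ALDH-high and both, and 0 to 11, 1 to 7 and 0 to 4 between fractions under DMSO, erlotinib and both.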
